A study of Columba livia with 12 samples.

Results

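The pectoral muscle powers the downstroke of the wing and is the largest muscle of a flying pigeon. In this species it is built mainly of fast fibres rich in mitochondria and myoglobin, with a minority of fast glycolytic fibres, and burns mostly fat on long flights. In muscle, messages for contractile proteins and for enzymes of energy supply are known to take a large part of all RNA reads. This text describes the genes that took most of the reads in the pectoral muscle of untrained racing pigeons (Columba livia), how far they differed from bird to bird, and where they stood in raced birds. The genes were selected on their level in 5 untrained birds: they are the 100 locus tags with the highest median CPM there (counts scaled to a common library total), out of 15392 genes in the files. Raced birds had no part in that choice, and untrained levels are given here as a description.

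RNA of 12 birds from the same private loft was sequenced, 1 library per bird. Of these, 5 were adults with no racing training at any time (untrained). The other 7, called trained, had been flown in training and had competed in a race of 300 km, having been basketed the day before and carried to the release point. All birds shared housing and feed. Training, transport and the race went together, so their effects cannot be told apart. The labels used here give neither the time between landing and sampling nor the sex of the birds. Birds are named by group and library number, and the groups do not share numbers. Counts over genes ranged from 13611534 to 29169918 per library.

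The tags could not be read as gene names. None of the 15392 tags (0 matches) appeared in the reference gene table, which lists 22830 genes under other identifiers, and the files do not pair tags with names. Members are therefore called by their rank, from 1 to 100 in falling order of untrained median CPM, and by tag only in places. The tissue label could not be checked against muscle markers for the same reason. CPM was not divided by gene length, so the order is one of shares of reads, in which long transcripts count for more, and not of numbers of transcripts. The description of the muscle as resting rests on the training label alone.

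Before the results, 2 libraries need mention. Trained bird 13 had a scaling factor of 0.752 by the trimmed mean of M-values (TMM), against 0.98 to 1.07 in the other 11 birds. Untrained bird 5 lay nearer to the trained than to the untrained birds in most members, as described below. Levels in the text are unscaled CPM, and fold changes are from the TMM-scaled fit.

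The members were 0.65% of the genes and held 40.8% of the counts in the median untrained bird. Their share was 40.8% in bird 2, 40.6% in bird 3, 40.9% in bird 4, 35.3% in bird 5 and 41.3% in bird 12. In trained birds it ranged from 32.4% to 40.4%, with a median of 35.0%. Trained bird 13 had the highest of the trained values and lay just below the 4 closely spaced untrained birds, while untrained bird 5 lay among the other trained birds. The means were 39.8% ± 2.5 (SD, n = 5) in untrained and 35.2% ± 2.58 (SD, n = 7) in trained birds. Without trained bird 13 the trained mean was 34.4% ± 1.35 (SD, n = 6), and without untrained bird 5 the untrained mean was 40.9% ± 0.289 (SD, n = 4). Because untrained birds chose the members, a lower trained share was favoured from the start, and this difference was given no test. In these bulk libraries, fewer cells of a type and less RNA per cell cannot be told apart.

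A measure that neither group chooses is the share held by each library's own 100 leading genes. It was 40.5% ± 1.71 (SD, n = 5) in untrained and 37.7% ± 2.92 (SD, n = 7) in trained birds, a difference of -2.84 percentage points (exact two-sided permutation p = 0.0631, adjusted p = 0.11 over 5 related measures). The smallest p this design allows is 0.00126. Trained bird 13 had 44.1%, the highest of all birds, and the other trained birds had 35.2% to 37.3%. Untrained bird 5 had 37.6%, and the other untrained birds had 40.96% to 41.94%. Without trained bird 13 every trained bird lay below every untrained bird, and the difference was -3.92 points (exact two-sided permutation p = 0.00216, the smallest that split allows). Without untrained bird 5 it was -3.59 points (exact two-sided permutation p = 0.0455). With any other single bird left out, p was 0.121 to 0.152 (exact two-sided permutation). The call on this share thus changed with either of these 2 libraries. Both had been singled out for lying far from their own group, on this share too, so leaving them out favours a small p.

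The number of genes needed to reach 50% of a library's counts gave the same picture from the other side. It was 204 ± 22.9 (SD, n = 5) in untrained and 244 ± 44.8 (SD, n = 7) in trained birds, with an overlap (exact two-sided permutation p = 0.0783, adjusted p = 0.11). In trained bird 13 only 147 genes were needed, fewer than in any other bird.

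**Figure D1:**
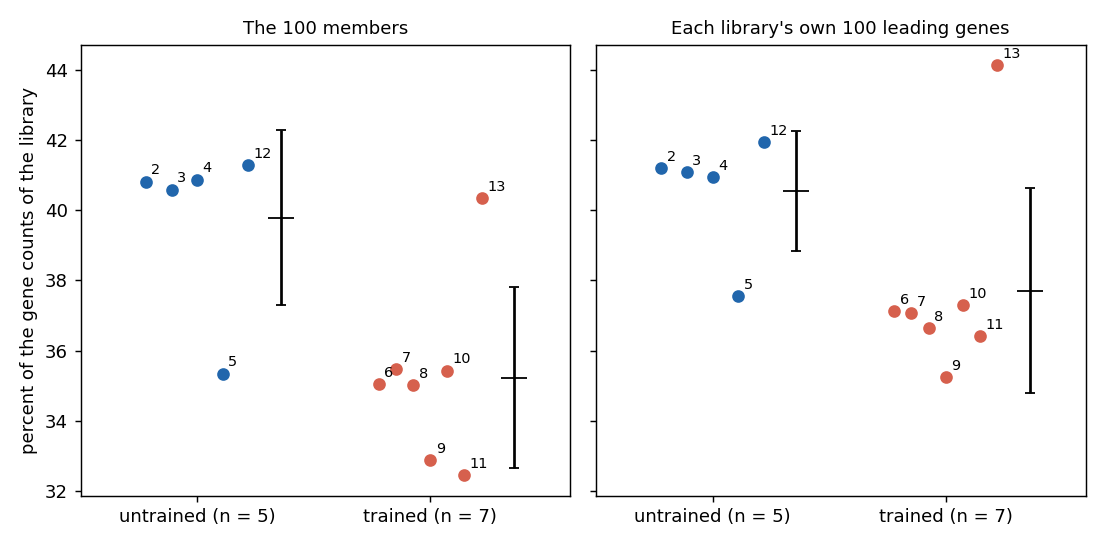
Percent of each library's gene counts (vertical axis, which does not start at 0) held by the 100 members (left) and by that library's own 100 leading genes (right). Points are birds with their library numbers, bars are mean ± SD, and untrained bird 5 (35.3%, left) and trained bird 13 (40.4%, left) each lie with the opposite group.

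Reads were spread steeply over the members. The untrained median fell from 25312 CPM at rank 1 to 2025 CPM at rank 50 and 1254 CPM at rank 100. The 10 leading genes alone held 15.9% ± 1.66 (SD, n = 5) of untrained counts, and 12.6% ± 2.08 (SD, n = 7) of trained counts. The cut at rank 100 fell in a smooth part of the curve. Rank 99 (A306_00007378) had 1102, 1192, 1356, 1271 and 1450 CPM in untrained birds 2, 3, 4, 5 and 12, and rank 100 (A306_00013337) had 1118, 1318, 1254, 1260 and 964 CPM. Just outside, the next gene (A306_00001317) had 1170, 1249, 1260, 881 and 1241 CPM, and the gene after it (A306_00002479) had 1230, 1266, 911, 2528 and 808 CPM. In trained birds these genes were at 962 to 1439 CPM (median 1163), 866 to 1253 CPM (median 1116), 919 to 2454 CPM (median 977) and 424 to 1674 CPM (median 1584), in the same order. The birds' ranges in these 4 genes overlapped widely, so the last places in the list were settled by differences smaller than the spread between birds.

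**Figure D2:**
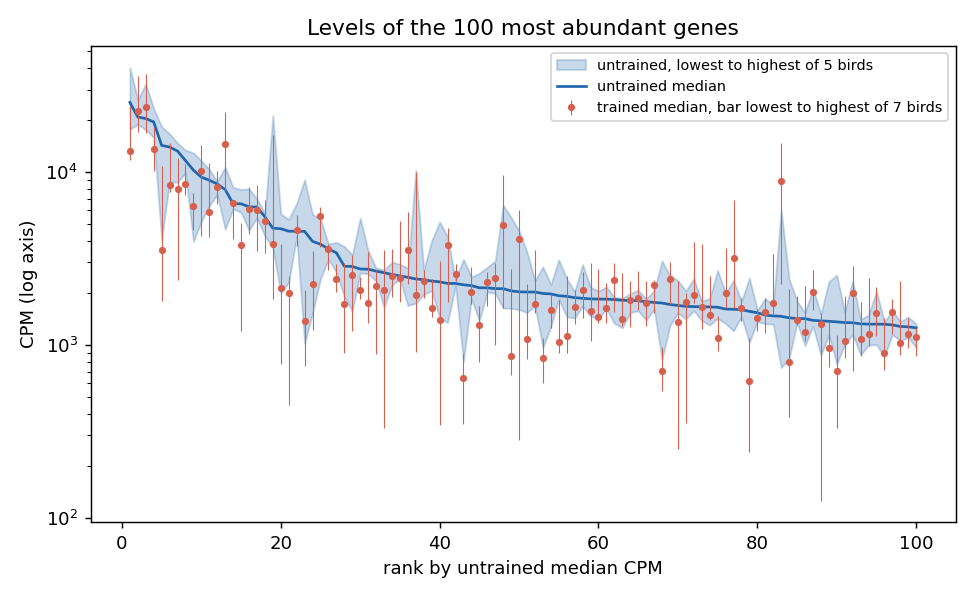
CPM on a log axis against rank by untrained median CPM, with the untrained median as a line, the untrained range as a band, and trained medians with bars from lowest to highest bird. The untrained median falls from 25312 CPM at rank 1 to 1254 CPM at rank 100, and trained medians scatter on both sides of it, the highest above the line being rank 83.

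None of the 10 leading genes passed the test between the groups with all libraries in (edgeR quasi-likelihood test, Benjamini-Hochberg adjustment over 11047 genes). Rank 1 (A306_00000565) was at 23592, 25312, 31450, 17668 and 40238 CPM in untrained birds 2, 3, 4, 5 and 12, and at 11770 to 24176 CPM in trained birds, with a median of 13286. Trained birds 7 and 10 lay within the untrained range, and the other 5 lay below all untrained birds. Its log2 fold change in edgeR was -0.78 (SE 0.26, adjusted p = 0.0812). DESeq2 gave it an adjusted p of 0.035, and edgeR called it when untrained bird 5 was left out. That bird had the lowest untrained value and had been singled out for lying far from its group, so leaving it out favours a call.

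Ranks 2 and 3 led in trained birds. Rank 2 (A306_00004975) was at 19113, 26200, 24543, 20819 and 18916 CPM in the untrained birds in the same order, and at 17111 to 35897 CPM in trained birds, with a median of 22424. Rank 3 (A306_00003663) was at 17565, 19157, 20404, 32338 and 30050 CPM, and at 16825 to 37064 CPM in trained birds, with a median of 23926. In both genes the trained range enclosed the untrained range, and the highest value was that of trained bird 13. By trained median they took places 2 and 1, and rank 1 took place 5.

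Rank 4 (A306_00004620) was at 19680, 16258, 19507, 15824 and 23301 CPM in untrained birds, and at 10144 to 18296 CPM in trained birds, with a median of 13601. Rank 6 (A306_00004041) was at 13960, 10308, 16334, 8802 and 16648 CPM, and at 7646 to 14683 CPM in trained birds, with a median of 8463. Rank 8 (A306_00006849) was at 11660, 9905, 12384, 10365 and 13404 CPM, and at 7331 to 11071 CPM in trained birds, with a median of 8549. In these 3 genes most trained birds lay below the untrained range. Their log2 fold changes were -0.34, -0.3 and -0.33 and did not pass the test, except that rank 8 was called when trained bird 13 was left out. With both untrained bird 5 and trained bird 13 left out, all 3 were called (adjusted p of 0.0205, 0.0243 and 0.0153, edgeR). These birds had been singled out for lying far from their own group, and leaving them out favours more calls.

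Rank 7 (A306_00003984) was at 14644, 11491, 14715, 8723 and 13225 CPM in untrained birds, and at 2373 to 11980 CPM in trained birds, with a median of 7932. The lowest value was that of trained bird 13, and trained birds 7 and 8 reached into the untrained range. The log2 fold change of rank 7 in edgeR was -0.82 (SE 0.3, adjusted p = 0.108), and DESeq2 gave an adjusted p of 0.0572. Rank 7 too was called with both untrained bird 5 and trained bird 13 left out (adjusted p = 0.025, edgeR), which favours calls. Rank 10 (A306_00011935) varied in both groups, with 5175, 11613, 5550, 9344 and 10495 CPM in untrained birds and 4250 to 14293 CPM, median 10087, in trained birds.

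Ranks 5 and 9 divided the untrained birds. Rank 5 (A306_00002070) was at 18309, 15257 and 14259 CPM in untrained birds 2, 3 and 4 but at 4052 and 6647 CPM in birds 5 and 12, and at 1797 to 10883 CPM in trained birds, with a median of 3553. Rank 9 (A306_00002262) was at 10629, 12921 and 10256 CPM in birds 2, 3 and 4, at 5566 and 3959 CPM in birds 5 and 12, and at 4625 to 7591 CPM in trained birds, with a median of 6388. In both genes untrained birds 5 and 12 lay within or below the trained range and the other 3 lay above it. Rank 24 (A306_00011628), picked out after its values were seen, had the same arrangement, with 5445, 5690 and 3970 CPM against 1754 and 1524 CPM, and 1225 to 3501 CPM in trained birds. Rank 5 had a log2 fold change in edgeR of -1.2 (SE 0.5, adjusted p = 0.156). It was called without trained bird 13, whose 10883 CPM was the highest trained value (log2 fold change -1.75). That bird too had been singled out, and leaving it out favours a call.

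Of the 100 members, all of which had enough counts to be tested, 2 rose and 7 fell in trained birds at an adjusted p under 0.05 (edgeR). That made 9 members, against 6.45% of all genes tested. The backgrounds were 2.98% for rises and 3.48% for falls. A high untrained level was the ground of choice, which favours a lower trained level. Among the 100 genes with the highest trained median, which share 80 with the members, 3 rose and 3 fell. Among the 100 genes highest by the mean of the group medians, which share 88 with the members, 3 rose and 6 fell. Falls thus outnumbered rises in that choice and in the members, and not in the choice by trained level.

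The classes of lower abundance were called at similar rates. The 100 genes next in rank had 8 calls, 1 higher and 7 lower. The 300 genes after them, down to rank 500, had 25 calls, 4 higher and 21 lower, and the next 500 genes, down to rank 1000, had 47 calls, 9 higher and 38 lower. The 1000 genes that end at rank 2000 had 78 calls, 29 higher and 49 lower. In the 2000 genes that end at rank 4000 the split was 79 higher and 68 lower. These classes too were ranked on untrained levels.

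Most members had small fold changes between the groups with all libraries in, though missing the threshold does not show that a gene stayed level. The log2 fold change was under 0.5 in size in 68 members and over 1 in 12, of which 5 were not called. The shares of all genes tested in these size classes are not given here, so these counts describe the members alone. The log2 fold change can be set beside all genes in its sign and median. It was below 0 in 57 members, against 47.1% of all genes tested. Its median was -0.06 over the members and 0.04 over all genes tested. Choosing members on untrained levels favours values below 0 and falls in any fit, so these comparisons are no test. The median was 0.056 in the 100 genes highest by trained median, a choice that favours values above 0. In the 100 genes highest by the mean of the group medians it was 0.029. At an unadjusted p under 0.05 there were 28 members, and 2737 genes among all 11047. DESeq2 called 15 members, 3 higher and 12 lower, against 13.3% of all genes to which it gave an adjusted p (6.98% higher, 6.29% lower), and its calls held all 9 of the edgeR calls.

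**Figure D3:**
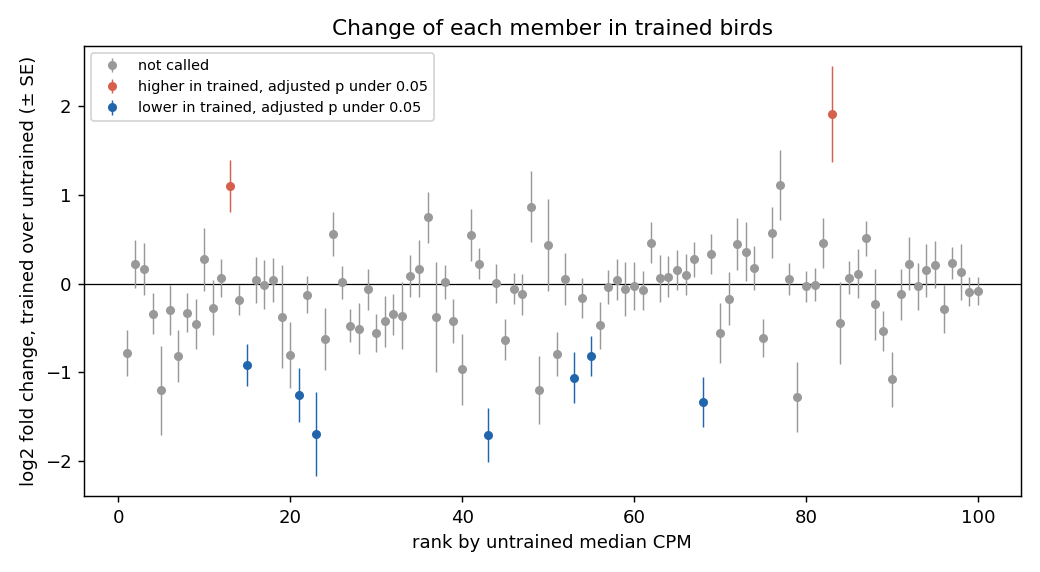
log2 fold change of each member, trained over untrained (vertical axis, bars ± SE from edgeR), against rank by untrained median CPM. The 2 called rises, ranks 13 and 83, and the 7 called falls stand among 91 members not called, 68 of all members lying within 0.5 of 0.

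Rank 13, A306_00002589, rose. It was at 4657, 7917, 6596, 10672 and 7961 CPM in untrained birds 2, 3, 4, 5 and 12, and at 7746 to 22242 CPM in trained birds, with a median of 14513. Of the trained birds 6 lay above every untrained bird, and trained bird 10 at 7746 CPM lay among them. The means were 15703 ± 4915 CPM (SD, n = 7) for trained birds and 7561 ± 2198 CPM (SD, n = 5) for untrained birds, and edgeR gave a log2 fold change of 1.1 (SE 0.29, adjusted p = 0.0434). It took place 3 by trained median. It was called in 4 of the 12 fits that left out 1 library, with log2 fold changes of 0.96 to 1.25.

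Rank 83, A306_00007476, had the largest rise among the members. It was at 967, 2358, 1462, 6054 and 737 CPM in untrained birds, and at 2263 to 14796 CPM in trained birds, with a median of 8886. Untrained birds 3 and 5 stood within the trained range. Trained bird 7, at 5427 CPM, and trained bird 13, at 2263 CPM, stood within the untrained range. The means were 8728 ± 4306 CPM (SD, n = 7) and 2316 ± 2181 CPM (SD, n = 5), and edgeR gave a log2 fold change of 1.91 (SE 0.54, adjusted p = 0.0497). By trained median it took place 7. It was called in 2 of the 12 fits that left out 1 library, and its log2 fold change without untrained bird 5 was 2.64. The call was also lost with total counts alone, with no count filter and with the filter of at least 10 CPM in 5 libraries, at log2 fold changes of 1.89 to 1.91.

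Rank 43, A306_00002912, fell, and was the member called in all 12 fits that left out 1 library. It was at 2650, 2037, 2224, 800 and 3129 CPM in untrained birds, and at 349 to 885 CPM in trained birds, with a median of 640. Untrained bird 5 was the single untrained bird inside the trained range. The means were 643 ± 165 CPM (SD, n = 7) for trained birds and 2168 ± 873 CPM (SD, n = 5) for untrained birds, and edgeR gave a log2 fold change of -1.71 (SE 0.3, adjusted p = 0.0117). By trained median it stood at place 221. With 1 library left out the log2 fold change was -1.92 to -1.55.

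Rank 23, A306_00002313, fell by a similar amount on a divided base. It was at 6804, 9000 and 4538 CPM in untrained birds 2, 3 and 4, but at 1273 and 1019 CPM in birds 5 and 12, and at 756 to 2086 CPM in trained birds, with a median of 1381. Untrained birds 5 and 12 both lay within the trained range, the arrangement seen at ranks 5, 9 and 24. The log2 fold change in edgeR was -1.69 (SE 0.48, adjusted p = 0.0493), and it was called in 3 of the 12 fits with 1 library left out and not with no count filter.

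The other 5 falls were of 1.76-fold to 2.53-fold, untrained over trained. Rank 68 was at 2195, 3059, 1744, 822 and 1419 CPM in untrained birds and at 537 to 966 CPM, median 708, in trained birds, with only untrained bird 5 in the trained range. Its log2 fold change in edgeR was -1.34 (SE 0.29, adjusted p = 0.0197), and it was called in 9 of the 12 fits with 1 library left out. Rank 21 was at 5324, 4830, 4445, 2299 and 4547 CPM in untrained birds and at 449 to 2502 CPM, median 1991, in trained birds. Again untrained bird 5 alone overlapped, and trained bird 13 had the lowest value of all. Its log2 fold change in edgeR was -1.26 (SE 0.3, adjusted p = 0.0306), called in 6 of the 12 fits.

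Rank 53 was at 1497, 2831, 2110, 962 and 1983 CPM in untrained birds and at 599 to 1098 CPM, median 842, in trained birds, with untrained bird 5 in the trained range. Its log2 fold change in edgeR was -1.06 (SE 0.29, adjusted p = 0.044), called in 2 of the 12 fits. Rank 15 was at 6690, 5838, 6551, 6127 and 7928 CPM in untrained birds and at 1209 to 5099 CPM, median 3785, in trained birds. Every trained bird was lower than every untrained bird, bird 5 included. Its log2 fold change in edgeR was -0.92 (SE 0.24, adjusted p = 0.0388), called in 3 of the 12 fits and not with total counts alone. Rank 55 was at 1906, 1923, 2096, 1843 and 3115 CPM in untrained birds and at 895 to 1808 CPM, median 1037, in trained birds, also without overlap. Its log2 fold change in edgeR was -0.82 (SE 0.23, adjusted p = 0.0492), called in 3 of the 12 fits. It was not called with DESeq2's size factors in edgeR, with scaling on genes other than the members, or with no count filter.

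Full separation of the groups was found in 3 members, all with lower trained values and none with higher (0 members). Over all genes tested 1.42% lay fully below and 1.12% fully above. The same 3 members were separated with TMM scaling. The third gene beside ranks 15 and 55 was rank 30 (A306_00011625), at 2746, 2746, 2625, 2606 and 5416 CPM in untrained and 1840 to 2475 CPM in trained birds, which did not pass the test (log2 fold change -0.56, adjusted p = 0.127, edgeR).

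**Figure D4:**
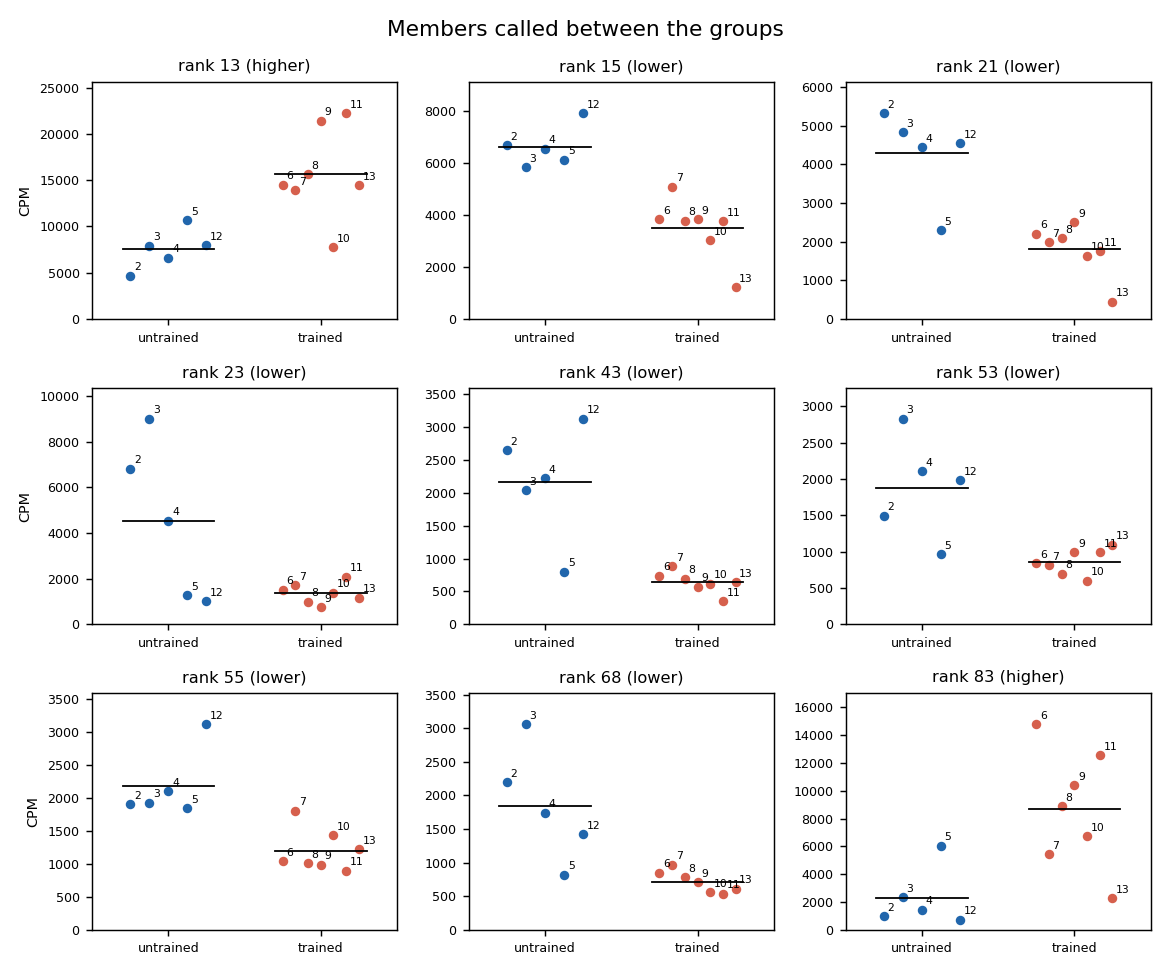
CPM (vertical axes, from 0) of the 9 members called between the groups, with 1 point per bird marked by library number and a line at each group's mean. Untrained bird 5 lies in the trained range at ranks 13, 21, 23, 43, 53, 68 and 83, while ranks 15 and 55 separate the groups. Other untrained birds also lie in the trained range at ranks 13, 23 and 83.

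The number of members called moved with single libraries. It was 1 without untrained bird 2, 3 or 4 (the same member, rank 43), where 1.34%, 0.993% and 0.992% of all genes tested were called. It was 3 without untrained bird 12, where the background was 1.76%. Without trained birds 6, 8, 9 and 10 it was 3 each time, against 4.09%, 3.87%, 3.85% and 4.19%. It was 2 without trained bird 11, against 2.15%, and 8 without trained bird 7, against 5.3%. It was 17 without untrained bird 5, 5 higher and 12 lower, where 16.9% of all genes tested were called (9.77% higher, 7.15% lower). Without trained bird 13 it was 18, 2 higher and 16 lower, where the background was 10.2% (4.67% higher, 5.49% lower). Without both birds it was 38, 7 higher and 31 lower, where the background was 26.6%, with 14.3% higher and 12.3% lower. All 9 members were again called in these 3 fits, which leave out birds singled out for lying far from their own group and so favour calls. Such gains are no sign of stability. The split into rises and falls is no test either, since choosing members on a high untrained level favours falls in every fit.

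The spread between birds was far wider than counting error. The lowest count of any member in any library was 1707, for which counting alone gives a coefficient of variation (CV, SD over mean) of 2.42%. Over the members the CV between untrained birds ranged from 2.66% to 94.2%, with a median of 18.9%, and it was under 20% in 53 members and over 50% in 9. Over all genes tested the median was 28.3%. In the 100 genes next in rank and the 300 after them it was 19.9% and 18%, values close to that of the members.

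Trained birds differed more among themselves. Their median CV over the members was 28.6%, against 38.9% over all genes tested, and the CV was higher in trained than in untrained birds in 73 of 100 members. Without trained bird 13 the trained median was 19%, and 57 members had the higher CV in trained birds. Leaving out untrained bird 5 as well lowered the untrained median to 14.9%, and 71 members then had the higher trained CV. With TMM scaling the medians were 33.5% in trained and 18.9% in untrained birds. These values describe 5 and 7 birds and were not tested.

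The steadiest members in untrained birds were ranks 42, 80 and 78. Rank 42 (A306_00011536) was at 2295, 2265, 2244, 2361 and 2199 CPM in untrained birds and at 2327 to 2919 CPM in trained birds, with a median of 2579. Its CV was 2.66% in untrained and 8.01% in trained birds, and its lowest count in any library, 35618, gives a counting CV of 0.53%. Rank 80 (A306_00013944) was at 1422, 1548, 1589, 1363 and 1534 CPM and at 1207 to 1618 CPM, median 1424, in trained birds. Rank 78 (A306_00007138) was at 1598, 1790, 1594, 1455 and 1607 CPM and at 1376 to 1877 CPM, median 1632, in trained birds. At ranks 78 and 80 the group means were 1609 and 1612 CPM, and 1491 and 1414 CPM, untrained before trained, differences smaller than the SDs of 94.6 to 157 CPM. At rank 42 the means were 2273 and 2562 CPM, a difference larger than the SDs of 60.4 and 205 CPM. Only trained bird 8, at 2327 CPM, lay within its untrained range. Rank 42 did not pass the test (log2 fold change 0.22, adjusted p = 0.473, edgeR).

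The most variable members in untrained birds were ranks 83, 19 and 37, with CVs of 94.2%, 87.3% and 84.8%. The place of rank 83 rested on untrained bird 5, at 6054 CPM. Without that bird its CV was 52%, below those of ranks 23, 40 and 49 (63.8%, 60.4% and 58.5%). Rank 19 (A306_00008843) was at 21203, 4732, 7842, 3649 and 4558 CPM in untrained birds 2, 3, 4, 5 and 12, and at 1851 to 16326 CPM in trained birds, with a median of 3848. Rank 37 (A306_00013535) was at 10243, 2235, 4145, 1741 and 2406 CPM, and at 912 to 10018 CPM, median 1942, in trained birds. In both genes untrained bird 2 and trained bird 7 stood far above the others. The CPM ratio of rank 19 to rank 37 stayed between 1.63 and 2.66 in all 12 birds, while the levels themselves spanned 11.5-fold and 11.2-fold. Their tags are not consecutive. The third most variable member in trained birds, after ranks 37 and 19, was rank 84 (A306_00002909), at 2408, 1793, 1433, 1240 and 828 CPM in untrained and 380 to 2108 CPM, median 795, in trained birds.

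Consecutive locus tags were found in 4 pairs of members, and 3 more pairs had tags 2 apart. What the order of tags means on the chromosomes is not given in the sources used here. Ranks 36 and 62 were such a consecutive pair (A306_00014536 and A306_00014535). Their CPM ratio ran from 1.23 to 1.99 over the 12 birds, a 1.62-fold span, against spans of 3.49-fold and 2.23-fold of the genes themselves. Rank 36 was at 1686 to 2776 CPM in untrained and 2239 to 5886 CPM in trained birds, and did not pass the test (log2 fold change 0.75, adjusted p = 0.126, edgeR). In the other 3 consecutive pairs the ratio spanned more than at least 1 of the genes did. It spanned 13.8-fold for ranks 24 and 40 (genes 4.64-fold and 15-fold), 3.16-fold for ranks 6 and 58 (genes 2.18-fold and 2.05-fold) and 2.14-fold for ranks 18 and 95 (genes 2.02-fold and 2.17-fold). For ranks 4 and 11, with tags 2 apart, it spanned 1.74-fold, against 2.3-fold and 2.67-fold of the genes. In the other pairs with tags 2 apart, ranks 30 and 40 and ranks 14 and 69, the ratio spanned more than at least 1 of the genes did. Ranks 30 and 40 were at 2606 and 3430 CPM in untrained bird 5, but at 1840 and 342 CPM in trained bird 13.

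Seen bird by bird, untrained bird 5 was the lowest untrained bird in 49 of 100 members and the highest in 15. In 70 members its level was closer, on the log2 scale, to the median of the trained birds than to that of the other untrained birds. For untrained birds 2, 3, 4 and 12 this held in 30, 35, 21 and 36 members. With TMM scaling it held in 67 members for bird 5. Its median distance per member was 0.37 from the other untrained birds and 0.21 from the trained birds (log2). The opposite tally, closer to the untrained median, held in 51, 48, 42 and 41 members for trained birds 13, 10, 7 and 8. For trained birds 6, 9 and 11 it held in 26, 24 and 19 members. With TMM scaling it held in 57 members for trained bird 13.

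The tally of trained bird 13 turned with the scaling. In unscaled CPM it was the highest trained bird in 42 members and the lowest in 24, and lay more than 2-fold above the median of the other 6 trained birds in 11 members and more than 2-fold below it in 17. With TMM scaling, chosen for this tally after seeing the data, it was the highest in 60 and the lowest in 17, with 33 members more than 2-fold above and 12 below. Outside the range of all 11 other birds lay 7 of the 11 and 14 of the 17 in unscaled CPM, and 27 of the 33 and 10 of the 12 with TMM scaling. The deepest drop in unscaled CPM was at rank 50, with 283 CPM against 1133 to 6043 CPM in the other trained birds and 1598 to 4562 CPM in untrained birds. Rank 88 had 125 CPM in bird 13 against 625 to 1523 CPM and 870 to 1510 CPM, and rank 33 had 328 CPM against 1087 to 3549 CPM and 1643 to 2705 CPM. In the other direction rank 77 had 6865 CPM in bird 13, against 1640 to 3570 CPM in the other trained and 1203 to 2355 CPM in untrained birds. These 4 genes were picked out after their values were seen. The library of bird 13 had the lowest total of all birds, 13611534 counts, and the largest share of reads outside genes, 22.2%. It also had the fewest genes detected, 11655, against 12546 to 13206 in the other birds. RNA quality itself could not be examined from the files. The part of RNA quality or of these library traits in the values of bird 13 was not tested.

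**Figure D5:**
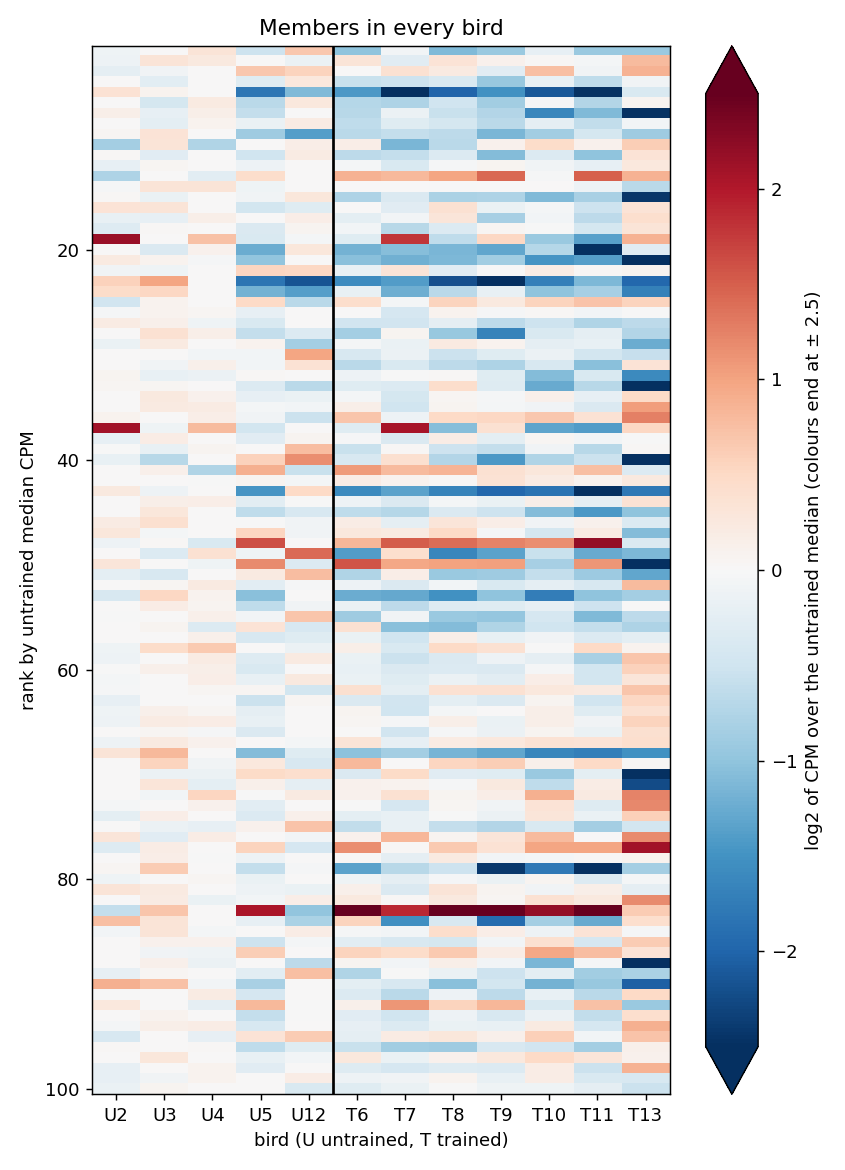
log2 of each member's CPM over the untrained median (colour, ending at ± 2.5, so larger values look alike), with members in rows by rank and birds in columns (U untrained, T trained). Untrained bird 5 shows much of the pattern of the trained birds, ranks 19 and 37 stand out in U2 and T7, and trained bird 13 has dark bands of its own, such as ranks 50 and 88.

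The list itself was largely kept in raced birds. Of the 100 members 80 were also among the 100 genes with the highest trained median, and 96 were among the first 200. The member lowest in the trained order was rank 79 (A306_00007420), at place 230, with 1614, 2433, 1561, 1032 and 1528 CPM in untrained birds and 238 to 1089 CPM, median 613, in trained birds. It did not pass the test with all libraries in (log2 fold change -1.28, adjusted p = 0.0637, edgeR). DESeq2 gave it an adjusted p of 0.0218, and edgeR called it in 2 of the 12 fits that left out 1 library. The 20 genes that took the free places had untrained ranks of up to 282. In single libraries, the own 100 leading genes included 91 to 96 members in untrained birds 2, 3, 4 and 12, 77 in untrained bird 5, and 67 to 82 in trained birds. The members were chosen on these untrained libraries, which favours larger numbers there, so the gap between the groups is no test. In all 12 libraries 45 members were among the 100 leading genes.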

How the data were processed

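Per the labels' protocols, TriReagent was used to isolate total RNA and a TruSeq kit to prepare the libraries. The authors deposited whole-number counts per locus tag, not normalized, in 1 file per bird. Tools named in the submitters' processing notes, with no role given, are STAR, HTSeq, DESeq2, FastQC 0.11.5 and bcl2fastq 2.20. Genome build, annotation and strand use are not stated there, so overlapping, antisense or near-identical genes may share reads. The 5 summary rows of each file were left out of totals and tests. They held 18.5% to 22.2% (outside genes), 4.56% to 6.25% (no unique place) and 0.174% to 0.353% (more than 1 gene) of reads, and 0 in the other rows. The share with no unique place did not overlap between the groups. It was 5.39% to 6.25% in untrained and 4.56% to 5.09% in trained birds, and its part in the results was not tested. Intervals from counts cover counting error only.

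All genes were fitted with edgeR 4.0.16 in R 4.3.3 (filterByExpr, TMM, robust quasi-likelihood F test, two-sided, Benjamini-Hochberg adjustment over 11047 genes, threshold 0.05). The SE is the absolute log2 fold change over the square root of F. Shares were compared by exact permutation of the birds over the groups. Over the members, the chi-square per degree of freedom between 2 libraries of a group was at least 1522 in 31 pairs, where noise alone gives about 1. No 2 files of the same group thus hold the same library's counts, and pairs across the groups were not compared. The script was tested on simulated data. Alternatives were DESeq2 1.42.0, other scalings, count filters, dispersions and member choices, and leaving out libraries.

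The members, gene lists and tests were chosen with earlier results of these data known. The gene lists and cell type markers needed gene names and could not be used. Values in every untrained bird, with the range and median of the trained birds, are given for ranks 1 to 10, members called, the 3 most and 3 least variable in untrained and the 3 most variable in trained birds, and the genes on either side of the limit at rank 100. Tags of called genes are printed for 2 rises and the 2 largest falls. Abundance classes, tallies by bird, TMM-scaled tallies and CVs, consecutive tags and the CVs without birds 5 and 13 were added after seeing the data.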

Additional observations from a re-analysis of the deposited data

Results flagged for a closer look

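In 60 sets of values (3 shares or gene numbers and 27 members, in each group), the highest or lowest bird was compared with its nearest neighbour by Dixon's rule, and 12 values stood apart. Chance gives about 1 set in 20 where sets are independent and not chosen for spread, which does not hold here, since ranks 19, 37, 83 and 84 were taken for their high CV and all sets share the same birds. Of these, 5 belong to trained bird 13 and 3 to untrained bird 5.

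Untrained bird 5 was the lowest untrained bird in the members' share of counts (35.34%, next 40.59%) and in the share of its own 100 leading genes (37.56%, next 40.96%). It was the highest in the number of genes that hold 50% of counts (243, next 202). Trained bird 13 was the highest trained bird in the members' share (40.36%, next 35.46%) and in its own leading share (44.15%, next 37.3%), and lowest in the number of genes (147, next 245). It was also the highest trained bird at rank 5 (10883 CPM, next 5240 CPM) and the lowest at rank 21 (449 CPM, next 1633 CPM).

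Untrained bird 2 stood apart at rank 19 (21203 CPM, next 7842 CPM) and rank 37 (10243 CPM, next 4145 CPM), and trained bird 7 at rank 37 (10018 CPM, next 3431 CPM). Untrained bird 12 stood apart at rank 55 (3115 CPM, next 2096 CPM). This called fall was lost without that bird (log2 fold change -0.66), but it was kept in only 3 of the 12 fits that left out 1 library.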

How the results depend on the processing

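With 1 library left out, members called ranged from 1 to 18, with 0 to 5 higher and 1 to 16 lower in trained birds, and the members' median log2 fold change from -0.201 to -0.0030. The difference in the libraries' own leading shares ranged from -2.43 to -3.92 percentage points and passed 0.05 only without untrained bird 5 (-3.59) or trained bird 13 (-3.92). Without both birds it was -4.66 (exact two-sided permutation p = 0.00476, the smallest that split allows), members called were 38 (7 higher, 31 lower) and their median was -0.25. Both birds had been singled out for lying far from their own group, so leaving them out favours small p-values and more calls. DESeq2 called 15 (3 higher, 12 lower). Higher members numbered 1 with total counts alone, with no count filter and with at least 10 CPM in 5 libraries. Members chosen by trained median had 3 lower. The first 50 members had 5 calls (1 higher, 4 lower) and a median of -0.29. The first 200 had 17 (14 lower) and a median of 0.018. The median was 0.056 in members chosen by trained median and 0.029 by the mean of the group medians. Choice on untrained levels favours falls and a negative median. Choosing the members without each untrained bird gave 1 to 3 higher and 7 lower.

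Over 27 named members, 449 of 540 refitted fold changes kept direction and call, 72 lost the call and 10 gained it. Direction turned in 9, all of members not called: rank 2 without trained bird 13 (-0.024) and without both birds (-0.047), rank 3 without trained bird 13 (-0.065), ranks 19 (0.31) and 37 (0.27) without untrained bird 2, rank 78 without trained bird 13 (-0.051) and without both (-0.089), and rank 80 without trained bird 7 (0.0029) or 11 (0.011). With 1 library left out, the fold changes of these members reached 0.30 (rank 3), -0.77 (rank 19), -0.98 (rank 37), 0.11 (rank 78) and -0.13 (rank 80) at the other end. Apart from the libraries left out, the causes were not tested. No paired analysis was possible because the groups share no library numbers. Counting error had a CV of at most 2.42% in the members, and with 1 library per bird, differences of birds and of library preparation cannot be told apart.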
